A study of Mus musculus with 6 samples.

Results

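Slc15a2 (ENSMUSG00000022899) encodes PEPT2, a proton-coupled carrier of di- and tripeptides, and is 1 of the 1386 genes and loci in the table the authors deposited. It was taken because its count was 0 in all 3 PBS libraries, so the difference between the groups chose it and is described here without a test. The RNA came from epithelial cells of the intestine of WT mice kept on regular chow. From 8 weeks of age the mice were gavaged every day for 7 weeks with 400000000 Akkermansia muciniphila (Akk, a gut bacterium that lives on mucus) or, as the control, with PBS. Each group has 3 libraries, numbered 1 to 3. Whether every library stands for a separate mouse is not stated in the labels, and the spread between libraries could therefore be partly technical.

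Peptide transporters of the Slc15 family carry the small peptides left by protein digestion into cells together with protons. Slc15a1 (PEPT1) is known as the low-affinity, high-capacity carrier of the small intestinal brush border. Slc15a2 (PEPT2) is known as the high-affinity, low-capacity carrier of the kidney tubule, the choroid plexus and the lung, and also takes up beta-lactam antibiotics and small bacterial peptides. Slc15a3 and Slc15a4 are lysosomal members that carry histidine and bacterial peptides. Sodium-proton exchange at the brush border (Slc9a3) and the scaffold protein Pdzk1, which binds the tail of PEPT2, are known partners of this transport.

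Only entries past the authors' thresholds for a difference between the groups are in the table, 346 with a higher level in Akk and 1040 with a lower one. The depth implied by the counts and FPKM (fragments per length of the gene and depth of the library) was 32700747 to 40769940 fragments per library. PBS replicate 2 stood apart: the summed FPKM of the 7 listed of 8 Paneth cell markers was 6610.4 in it, against 182.8 and 196.6 in PBS replicates 1 and 3 and 142.5 to 158.9 in Akk. None of the 7 was at 0 in any library. Slc15a2 had 0 counts in PBS replicate 2 as in the other two, and without that library it was at least 78.3-fold higher in Akk against the floor of 3 counts used throughout. Of the enterocyte markers, Apoa4 was the 1 listed of 10, with 466.5 to 3101.2 FPKM in PBS and 3659.9 to 5057.1 in Akk. Of 8 enteroendocrine markers 3 were listed, 2 as higher in Akk and 1 as lower. Their sum was 44.6 to 62.7 FPKM in PBS and 81.5 to 85.0 in Akk, and does not stand for each member. The goblet cell marker Zg16, the 1 listed of 7, had 667.6 to 1204.8 in PBS and 1197.5 to 1704.7 in Akk. Of the region lists, the ileal gene Ang4 (also a Paneth marker; 1 listed of 6) and the colonic gene Aqp4 (1 of 7) were highest in PBS replicate 2, at 1304.8 and 9.1 FPKM against at most 48.3 and 0.4 in the other libraries. The part of these cell and region markers in the difference of Slc15a2 was not tested. No marker of enteric glia and neurons (10 genes), macrophages and dendritic cells (8), T cells (6), B and plasma cells (6), tuft cells (6) or stroma and endothelium (8) was listed. For a gene outside the table, a level that did not differ cannot be told apart from one that was not measured.

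Slc15a2 lies on chromosome 16 from 36750177 to 36784962 (GRCm38, minus strand), a span of 34786 bases with 14 annotated transcripts, 4 of them protein-coding. The window around its annotated RefSeq start is shown for orientation; where the transcripts counted in Akk begin was not measured. It runs from 250 bases before that start to 50 bases from it (chr16:36784913-36785212, GRCm38.p6, minus strand), and the capitals mark the transcribed bases.
Slc15a2: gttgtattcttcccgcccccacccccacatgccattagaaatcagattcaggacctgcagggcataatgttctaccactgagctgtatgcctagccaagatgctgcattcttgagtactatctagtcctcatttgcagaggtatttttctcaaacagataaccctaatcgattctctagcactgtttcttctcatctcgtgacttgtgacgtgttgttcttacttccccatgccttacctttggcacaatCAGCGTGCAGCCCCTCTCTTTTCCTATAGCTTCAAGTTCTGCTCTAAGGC
On both strands this window held 1 match to the GC box GGGCGG, as its reverse complement, beginning at position -238 from the start. That motif is in 35.7% of the 32851 promoter windows of the same length. There was no match to the TATA box TATAAA (13.6% of windows), to CCAAT (37.4%) or to the letters TTTATTG of Cdx homeobox sites (4.6%). These matches describe the letters alone.

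Slc15a2 was detected in each Akk library and in no PBS library. The read counts were 135, 439 and 151 in Akk replicates 1, 2 and 3, and 0 in each of PBS replicates 1, 2 and 3. In FPKM the Akk libraries had 0.804, 2.789 and 1.022, a mean of 1.54 ± 1.09 (SD, n = 3). The groups did not overlap, and replicate 2 was the highest of the Akk libraries. A count of 0 at these depths allows up to 3 counts, which for this gene is an FPKM of up to 0.0201, 0.0223 and 0.0191 in PBS replicates 1, 2 and 3. With each PBS library set to that floor of 3 counts, the mean count per depth was at least 75.0-fold higher in Akk. Against the same floor, the single Akk libraries lay at least 39.2-fold, 135.9-fold and 49.8-fold higher for replicates 1, 2 and 3. Without Akk replicate 2 the mean of the group was at least 44.5-fold higher. These bounds hold for PBS levels up to the floor of 3 counts, and at 3.7 counts they would be smaller. Counting error in Akk and the spread between libraries are not included in them. Fewer cells that hold the transcript and less of it per cell cannot be told apart in bulk RNA.

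**Figure D1:**
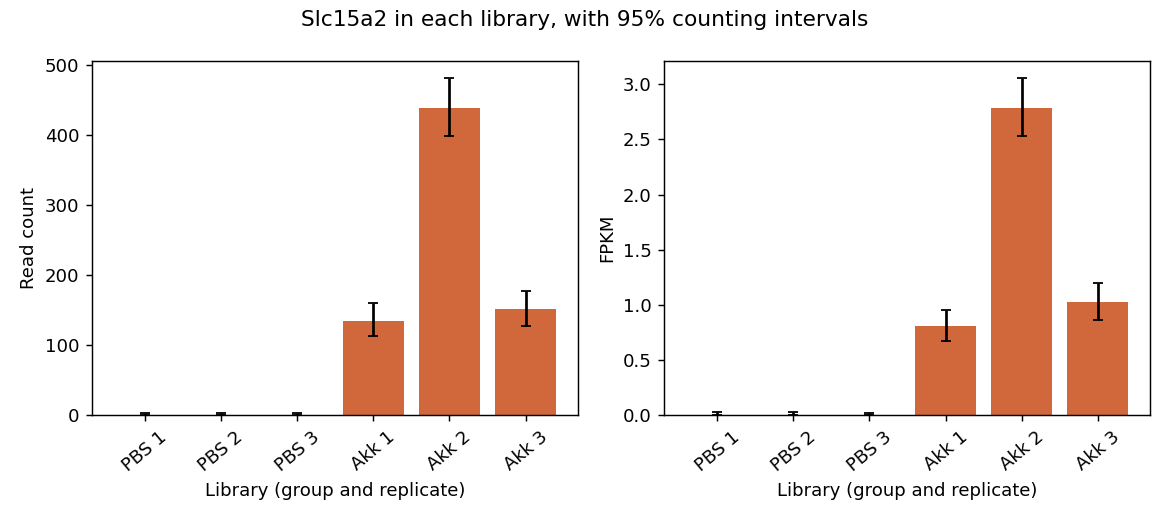
Slc15a2 in each of the 3 PBS and 3 Akk libraries, as read counts (left) and as FPKM (right); bars are single libraries and whiskers are exact 95% Poisson intervals of the count. The PBS libraries are at 0, Akk replicates 1 and 3 are at 135 and 151 counts, and Akk replicate 2 is at 439 counts.

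The 3 Akk libraries differed among themselves. The exact 95% Poisson interval of the FPKM was 2.53 to 3.06 in replicate 2, clear of the 0.674 to 0.952 of replicate 1 and the 0.865 to 1.20 of replicate 3, while the intervals of replicates 1 and 3 overlapped. In order of level, replicate 2 stood first at 3.06 times the mean of the other two, followed by replicate 3 at 1.27 times replicate 1. Whether replicates 1 and 3 differ beyond counting error was not tested, and overlapping intervals do not settle it. The highest Akk library was 3.47 times the lowest, where the median over all 1386 entries was 1.53 times. A spread in Akk at least as wide was seen for 94 entries, 41 of them among the 346 listed as higher. Akk replicate 2 was at least 2-fold above both other Akk libraries for 18 entries, and Slc15a2 was the fifth by this ratio (2.73 times the next library). The summed FPKM of the 3 listed duodenal genes (of 6: S100g, Slc40a1 and Cybrd1) moved otherwise, with 7.0, 18.0 and 116.4 in Akk replicates 1, 2 and 3 and 5.2 to 14.3 in PBS. This sum does not stand for each member. The part of these duodenal genes in the level of Slc15a2 was not tested.

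The ratio of count to FPKM gives the length by which the authors scaled the gene, multiplied by depth. Absolute depth was set here from the longest transcripts of 548 genes, so an implied length near the longest transcript is partly built in. With that depth, the implied length was 4121, 4115 and 4117 bases in Akk replicates 1, 2 and 3. The longest annotated transcript, which is protein-coding and has 22 exons, has 3994 bases. All annotated exons of the gene together span 7361 bases, and the second longest transcript has 2158. The implied length was 1.03 times the longest transcript, against quartiles of 0.877 and 1.03 over the 548 well-counted genes used to set the depth, so Slc15a2 lay at the upper quartile. Which transcripts or exons the reads fell on is not given by the table.

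No neighbour of Slc15a2 was listed. The 3 nearest protein-coding genes below it are Ildr1, a receptor of tricellular junctions, 23.4 kb away, Cd86, a costimulatory ligand of antigen-presenting cells, 84.1 kb away, and the calcium-sensing receptor Casr, 188.0 kb away. Those above it are Eaf2, an elongation factor partner, 7.9 kb away, Iqcb1, a ciliary protein, 43.4 kb away, and Golgb1, a Golgi tethering protein, 90.2 kb away. The nearest listed genes were Polq, a DNA repair polymerase, 226.8 kb above, and Itgb5, an integrin, 2800.8 kb below. The processed pseudogene Gm8425 lies within Slc15a2 on the other strand, but shares 0 bases with its exons.

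Its pattern stood alone in the table. Slc15a2 was the single entry of 1386 (0.0722%) with 0 counts in all 3 PBS libraries and at least 10 in every Akk library, which is the pattern it was chosen for. No entry had 0 counts in all 3 Akk libraries. A zero in any library was seen for 2 entries, Slc15a2 and the unnamed locus newGene_3245, which lay just outside with 2, 0 and 0 counts in PBS and 126, 99 and 73 in Akk. Without PBS replicate 1 both entries had the pattern. With the same floor of 3 counts, newGene_3245 was at least 30.4-fold higher in Akk, and of the 345 other entries listed as higher 2 reached 10-fold. The median of these 345 was 1.66-fold. In FPKM, Slc15a2 was low: its mean in Akk ranked 287 of the 346 entries listed as higher, whose median was 8.60.

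**Figure D2:**
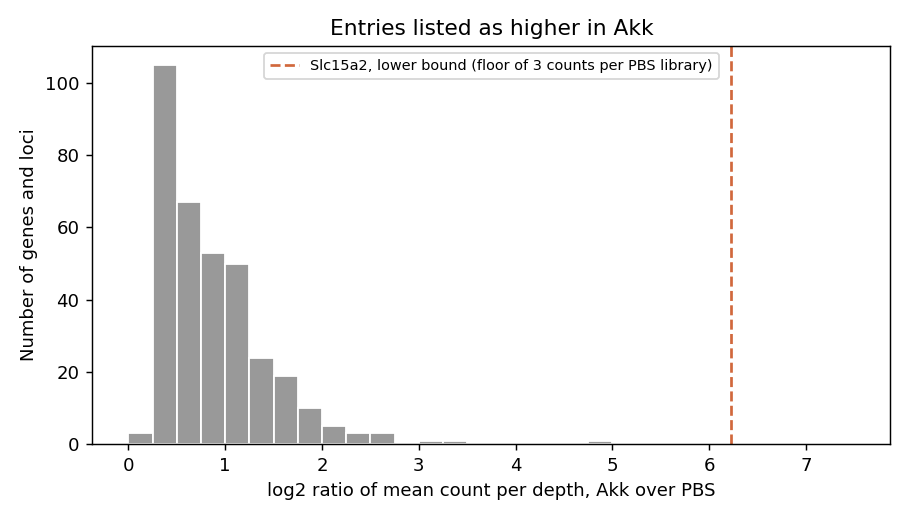
Histogram of the log2 ratio of mean count per depth (Akk over PBS) for the 345 other entries listed as higher, with PBS counts under 3 set to 3; the dashed line is the lower bound for Slc15a2, 6.23. Most entries lie below 2, and the line lies to the right of every bar.

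In the authors' deposited table, Slc15a2 has the largest log2 fold change of all 1386 entries, 4.51 (22.9-fold), and ranks 1 by p-value. Both ranks rest on the contrast that chose the gene, so they are no separate result. The authors' fold of 22.9 is smaller than the bound from the counts. The log2 fold changes of the authors' deposited table were closer to 0 than the log2 ratio of mean FPKM for 1129 of the 1385 other entries. How they were computed is not given in the sources used here.

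Slc15a2 was 1 of 31 listed solute carrier genes, 16 of them listed as higher. Among the other 15 higher carriers the largest ratio of mean FPKM was 3.97, for the phosphate carrier Slc34a2, with a median of 2.06, and all 15 had a higher mean FPKM in Akk than Slc15a2. The other Slc15 genes, Slc15a1, Slc15a3, Slc15a4 and Slc15a5, were not listed, so their levels cannot be given here.

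The genes most like Slc15a2 were ranked by how their FPKM was shared over the 6 libraries. Slc15a2 had 17.4%, 60.4% and 22.1% of its summed FPKM in Akk replicates 1, 2 and 3. Likeness is the overlap of this distribution with that of another gene, 100% when identical, and is a description over 6 libraries that share depth and selection. The ranking itself favours genes that are low in PBS and highest in Akk replicate 2, so these traits are no separate result. Every Akk library was above every PBS library for 130 of the 346 entries listed as higher (9.38% of all 1386). The median overlap was 21.6% over the 1385 other entries and 55.9% over those listed as higher.

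Cyp3a44, a cytochrome P450 of drug and steroid metabolism, was the nearest, with an overlap of 82.2%. Its FPKM was 0.735, 1.84 and 0.581 in Akk replicates 1, 2 and 3, and 0.302, 0.091 and 0.186 in PBS replicates 1, 2 and 3. The groups did not overlap, and as for Slc15a2, Akk replicate 2 was the highest library. Plet1, a surface protein known from placenta and hair follicle progenitors, overlapped by 78.5%. Its FPKM was 0.561, 1.32 and 0.800 in Akk and 0.349, 0.217 and 0.091 in PBS. It too was low overall and highest in Akk replicate 2, with every Akk library above every PBS library.

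The next named genes had overlaps of 71.0% to 72.2%, and 4 unnamed loci also lay above the lowest of these. Trpc1, a cation channel subunit, had 0.208, 0.638 and 0.344 FPKM in Akk and 0.095, 0.134 and 0.229 in PBS. Krt12, a keratin known from the cornea, had 5.77, 8.45 and 2.38 in Akk and 1.62, 0.577 and 1.15 in PBS. Trpc1 overlapped between the groups, while Krt12 did not. Arnt2, a basic helix-loop-helix partner protein, had 0.173, 0.429 and 0.232 in Akk and 0.140, 0.072 and 0.122 in PBS. Lama3, the laminin alpha 3 chain of the basement membrane, had 2.26, 3.85 and 3.03 in Akk and 0.903, 0.402 and 1.79 in PBS. Both were higher in every Akk library than in every PBS library. All 6 genes were detected in every PBS library, unlike Slc15a2, which was chosen for its 0 counts there. A zero in any library was seen for 2 of the 1386 entries, so such detection is common in the table. In each of the 6 genes the highest library was Akk replicate 2, which the ranking by overlap largely fixes. Ranked by Pearson correlation of log2(FPKM + 0.1) instead, 1 of the 6 remained among the first 6 (Cyp3a44).

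**Figure D3:**
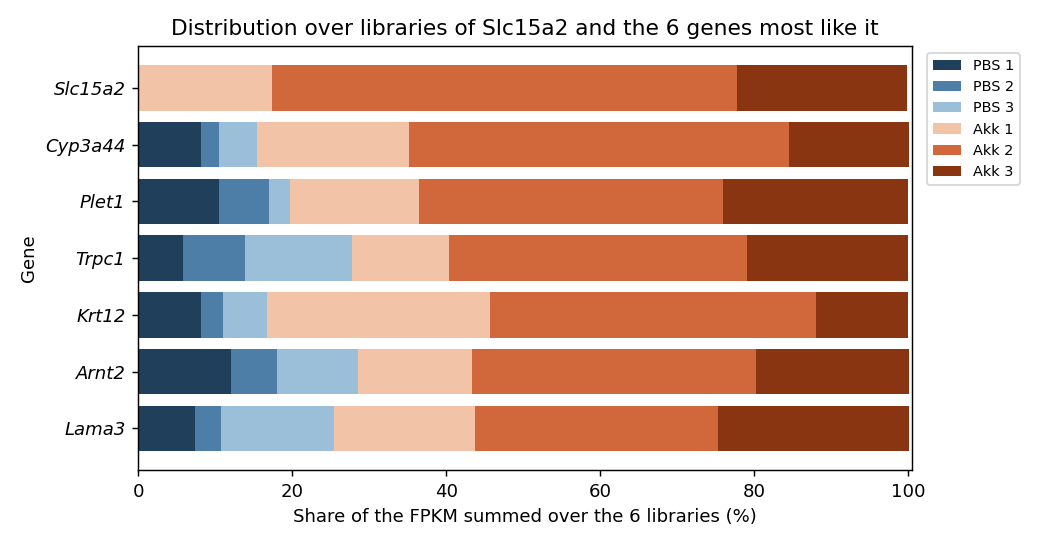
Share of each gene's summed FPKM in each of the 6 libraries, for Slc15a2 and the 6 named genes with the highest overlap; each bar adds up to 100%. Slc15a2 has no part in PBS and 60.4% in Akk replicate 2, and the other genes have 31.5% to 49.3% in that library.

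Of 91 other genes of peptide and amino acid handling, 10 were listed, of which Akk was higher for 3 and lower for 7. All 10 were selected on these libraries, so a test of them is not independent evidence. By edgeR's quasi-likelihood test, Benjamini-Hochberg adjusted over all 1386 entries, 0 of the 10 passed at 0.05 (adjusted p from 0.0861 to 0.134), beside 0.0% of all entries in either direction. An unadjusted p under 0.05 was seen for 5 of the 10 and 791 of all entries, and DESeq2 called 7 of the 10, Slc9a3 as higher (5.34% of all entries) and 6 as lower (51.4%). The median log2 fold change was -1.28 for the 10 and -1.85 for all entries. Without PBS replicate 2, edgeR called 4 of the 10, all lower (Nln, Car4, Slc7a1 and Pglyrp1), beside 17.7% of all entries called lower and 1.73% called higher. Without PBS replicate 1 it called 4, all lower (52.2% of all entries lower and 0.794% higher), and without PBS replicate 3 it called 4 lower (50.9%) and Pdzk1 as higher (1.95%). No overlap between the groups was seen for 1 of the 3 higher genes, beside 130 of the 346 entries listed as higher (9.38% of all 1386). All 7 lower genes had every Akk library below every PBS library. So did 901 entries (65.0% of all 1386), where 1040 were listed as lower, so the pattern is common in the table.

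The 3 genes listed as higher belong to proton supply and its scaffold. Of the 13 genes of that list 4 were listed, and Car4, given below, was listed as lower. The summed FPKM of these 4 overlapped between the groups, at 370.0 to 483.2 in PBS and 320.6 to 438.4 in Akk. That sum does not stand for each member. Slc9a3, the sodium-proton exchanger NHE3 of the brush border, had 150.5, 168.8 and 36.5 FPKM in Akk replicates 1, 2 and 3, and 44.7, 40.8 and 65.2 in PBS replicates 1, 2 and 3. Akk replicates 1 and 2 were above every PBS library and Akk replicate 3 was below every one, with a log2 fold change of 1.20 (SE 0.58), or 2.23 with TMM and 2.19 with RLE factors. Pdzk1, the scaffold of brush border transporters, had 143.3, 134.0 and 99.1 in Akk and 53.3, 20.8 and 105.5 in PBS. Its groups overlapped through PBS replicate 3, and the log2 fold change of 1.10 (SE 0.58) was 1.74 without PBS replicate 3, 0.70 without PBS replicate 2, and 1.92 and 1.87 with TMM and RLE factors. Car2, a cytosolic carbonic anhydrase, had 14.6, 16.8 and 13.5 in Akk and 6.82, 2.67 and 10.2 in PBS. Here every Akk library was above every PBS library, at a log2 fold change of 1.19 (SE 0.67), or 2.01 with TMM and 1.96 with RLE factors. The high level of Slc15a2 in Akk replicate 2 alone was not shared by these genes, whose overlap with its distribution was 58.0% to 64.4%.

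The 7 genes listed as lower were a carbonic anhydrase, cytosolic peptidases, amino acid carriers and a peptidoglycan-binding protein. Car4, a membrane-bound carbonic anhydrase of the same proton supply list, had 88.4, 118.7 and 171.5 FPKM in Akk and 265.2, 329.8 and 302.3 in PBS. Its groups did not overlap, and its log2 fold change of -1.23 (SE 0.41) was -1.16 (SE 0.29) without PBS replicate 2. With scaling factors computed from the listed genes it came to -0.13 (TMM), -0.16 (RLE) and -0.52 (upper quartile). The cytosolic oligopeptidase Nln (neurolysin) had 2.49, 2.52 and 2.66 in Akk and 4.90, 10.3 and 4.08 in PBS. A related oligopeptidase, Thop1, had 1.31, 1.08 and 1.14 in Akk and 1.77, 13.6 and 2.30 in PBS. Both were close together in Akk and highest in PBS replicate 2. The log2 fold change of Nln, -1.32, turned to 0.06 with TMM and 0.05 with RLE factors, and that of Thop1, -2.32, came to -0.43 and -0.38, or to -0.78 without PBS replicate 2.

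The amino acid carriers listed were Slc1a1 (glutamate and aspartate), Slc7a1 (arginine and lysine) and Slc7a5 (large neutral amino acids). Slc1a1 had 2.55, 5.33 and 5.41 FPKM in Akk and 6.22, 40.7 and 9.66 in PBS. Slc7a1 had 0.957, 1.10 and 1.17 in Akk and 2.32, 21.6 and 2.57 in PBS. Slc7a5 had 0.239, 0.296 and 0.293 in Akk and 0.338, 5.70 and 0.648 in PBS. Each of the 3 was lower in all Akk libraries, and PBS replicate 2 held 58.3% to 75.9% of the FPKM summed over the 6 libraries. Their log2 fold changes of -2.09, -3.03 and -2.99 were -0.84, -1.18 and -0.83 without that library. They were -0.34, -1.03 and -0.90 with TMM factors. Pglyrp1, a secreted protein that binds bacterial peptidoglycan, had 26.0, 24.5 and 24.0 in Akk and 42.7, 77.2 and 40.9 in PBS. Its log2 fold change of -1.11 (SE 0.53) turned to 0.19 with TMM and 0.17 with RLE factors, and was -0.24 with upper-quartile factors. All 7 genes listed as lower were highest in PBS replicate 2, the library with the high Paneth cell markers, whose part in them was not tested. The share of all entries that were highest in PBS replicate 2 was not counted. Without that library the median log2 fold change over all entries went from -1.85 to -0.66, so its weight was not particular to these 7 genes. None of 17 brush-border and luminal peptidases was listed, among them Anpep (aminopeptidase N), Dpp4 and the meprin genes Mep1a and Mep1b, nor were Nod1, Nod2 and Ripk2, which sense bacterial cell wall peptides.

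**Figure D4:**
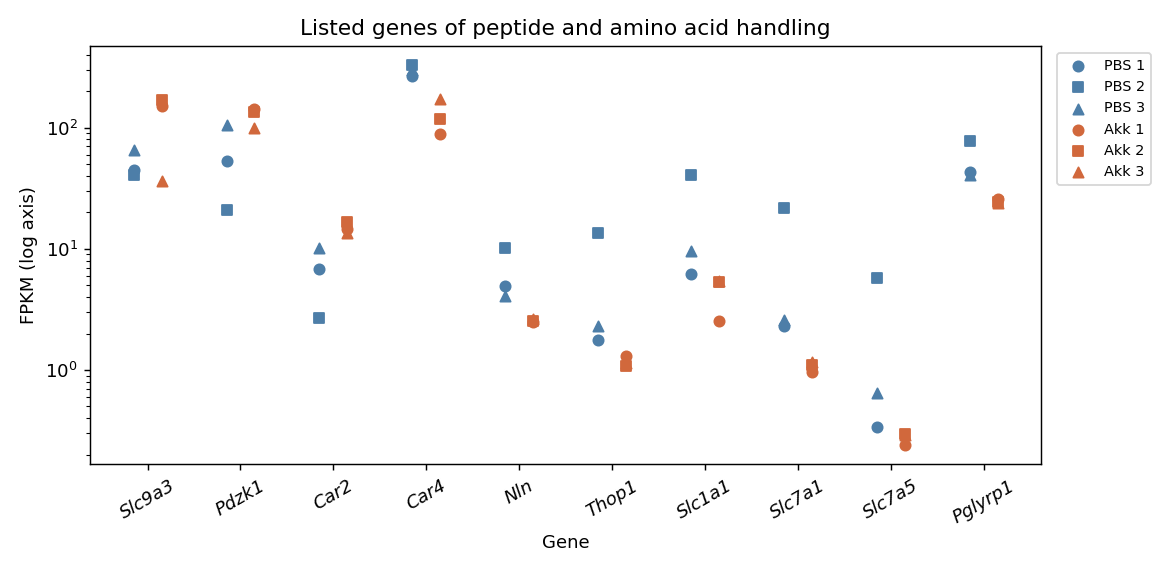
FPKM on a log axis of the 10 listed genes of peptide and amino acid handling in each library; colours mark the group and symbols the replicate. Slc9a3 is at 36.5 in Akk replicate 3 against 150.5 and 168.8 in the other Akk libraries, and PBS replicate 2 is the highest library for the 7 genes listed as lower.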

How the data were processed

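Total RNA was isolated with Trizol and made into Illumina mRNA libraries, per the labels' protocols, and the submitters' processing notes name mm10. Which aligner, counter, annotation, strand setting and test were used is not given in the sources used here. Per the file headers, the authors deposited whole-number read counts and FPKM for each library, and a p-value and log2 fold change per gene, not said to be adjusted. Their largest deposited p-value is 0.0498 and their smallest fold 1.50. Of the 1386 entries, 1322 have an Ensembl identifier, all found in GENCODE M21 (GRCm38); 2 lines without values were left out.

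Depth was derived from count divided by FPKM over 560 genes with at least 200 counts in every library. Its absolute value used the longest transcript of 548 of them, which scattered less around the implied length than all exons together; folds rest on relative depth only. The test was that of edgeR 4.0.16 in R 4.3.3, quasi-likelihood on counts with filterByExpr, recovered depth as library size and no replicate term. SE is the log2 fold change over the root of F. It was first tried on simulated data with less spread than these, whose biological coefficient of variation was 0.707. That trial does not show how often true differences would be called here. Alternatives were TMM, RLE and upper-quartile factors, no filter, DESeq2 1.42.0, limma-voom 3.58.1, the replicate block and each library left out.

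The gene, lists and rules were chosen with earlier results of these data known. Named were Slc15a2, its family, the 6 nearest named profiles (at least 60 counts in all), entries at 0 in PBS, every listed peptide handling gene and the 3 nearest coding genes on each side. Where 2 or fewer members of a marker or region list were listed they could be named; the 3 duodenal genes, newGene_3245, Slc34a2, Polq, Itgb5 and unlisted examples were chosen after their values were seen.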

Additional observations from a re-analysis of the deposited data

How the results depend on the processing

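The bound for Slc15a2 stayed between 44.5-fold and 92.8-fold with each library left out, was 75.0-fold from FPKM and 80.6-fold with equal depth. Its mean FPKM in Akk was 0.91 to 1.91 with each Akk library left out and 1.59 when recomputed from the longest transcript. The count of 1 entry at 0 in PBS was 1 to 2 with each library left out and 1 under both other count limits. Of the 6 genes with the nearest profile, 6 remained with shares of counts or no minimum count, and 1 with a Pearson correlation. The count of 0 peptide handling genes called by edgeR was 0 to 5 with each library left out and 7 with DESeq2 (1 of the 10 adjusted p was NA). Over all entries it was 0 to 734 with each library left out, 786 with DESeq2, 2 with limma-voom and 6 with the replicate block, under which 0 of the 10 were called. Same-numbered libraries correlated at 0.24, -0.06 and -0.30 in their deviations from the group means, so the numbers were not taken to pair them. With TMM and RLE factors, computed from selected genes, the median over all entries went from -1.85 (log2) to -0.17 and -0.15. They turned Nln to 0.06 and 0.05 and Pglyrp1 to 0.19 and 0.17; the cause was not tested. The filter removed no gene, so it says nothing about stability. Depth limits the PBS level of Slc15a2 to the floor given.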
